A study of Mus musculus with 42 samples.

Results

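The genes described here were 10 genes of the granule pathway by which natural killer (NK) cells kill: Prf1, Srgn, Nkg7, Lamp1, Rab27a, Unc13d, Stx11, Stxbp2, Serpinb9 and Serpinb6b. They were chosen as a list, by function, out of 54353 genes listed in every bulk RNA-Seq library, and 9 of the 10 were among the 35237 genes of the single-cell matrix, where Rab27a was not analysed. Cytotoxic granules are secretory lysosomes. On contact with a target they travel along microtubules, dock and fuse with the plasma membrane, and release perforin, which forms pores, together with granzymes, which enter the target and cleave its proteins. Serpins of the B clade in the cytosol bind granzymes and are known for protecting cells against the granzymes they carry or meet, and uterine NK cells are known for their large granules.

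Uterine tissue-resident NK cells (trNK) from wild-type C57BL/6 females of 8 to 12 weeks were profiled in 34 bulk libraries, with 2 libraries in each group. Untreated trNK sorted as CD45+NK1.1+NKp46+CD49a+CXCR6- came from virgin mice and from dams at gestational day (gd) 6.5 and gd8.5, and gd8.5 trNK were also sorted by CD55 and 4-1BB into low (trNK-V), intermediate (trNK-D) and high (trNK-T) subsets. In the 3-day culture, gd6.5 trNK-V were kept without IL-21, with 20 ng/mL IL-21, or with IL-21 and Stattic, an inhibitor of STAT3 (iSTAT3), all in IL-15 according to the methods, and live NK1.1+ cells were collected. The Stattic dose is 1 µM per the labels, whereas the methods print it in mM. A separate time course, labelled trNK and described in the study as the same gd6.5 subset, ran for 0, 6, 24 and 72 h in IL-15 with or without 20 ng/mL IL-21, with another library kit. Uterine CD45+NK1.1+NKp46+ cells of virgin mice and of dams at gd8.5, from pooled uteri, made up the single-cell matrix of 15175 cells, in which no map from cell to mouse group was used. Library totals ran from 11862089 to 66468883 counts. The labels do not say that the 2 libraries of a group came from separate animals, so p-values measure only the spread between these libraries, which may be technical. Bulk levels are given as RPKM (read counts scaled to gene length and library total), and since fewer cells of a type and less RNA per cell cannot be told apart in bulk RNA, a level describes the sorted population.

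The 4 trNK markers Itga1, Ncr1, Klrb1c and Eomes were above 1 RPKM in all 34 libraries. Their summed level was lower with IL-21, at 313 and 367 RPKM in the 3-day culture against 1100 and 966 RPKM without it. The second trNK-D library held 21100 RPKM of Igkc, an immunoglobulin light chain gene, and 1720 RPKM of 4 plasma cell markers, whereas the other libraries held at most 36.9 RPKM and at most 4.64 RPKM. The 4 libraries at 72 h of the time course had 6328 to 8124 genes above 1 RPKM and 18.2 to 28% of their counts in 10 genes, against 7519 to 8569 genes and 12.7 to 17.9% at the earlier times. Libraries of the other experiments had 9434 to 11412 genes above 1 RPKM, so detection was lower in the time course from 0 h on. Levels differed from 0 h too, with Prf1 at 16.5 to 40 RPKM and Stxbp2 at 2.67 to 5.01. Sorted gd6.5 trNK held 926 and 638 RPKM of Prf1 and 49.7 and 49.3 of Stxbp2. Nkg7 and Srgn were higher at 0 h than in that group. The part of kit and sort in this was not tested. Lamp1 overlaps Grtp1, on the opposite strand, over 3317 bases, and the counting was not stated to use strand, so reads of the pair cannot be told apart. Serpinb9 (chr13:33003250-33017957) and Serpinb6b (chr13:32965209-32979067) lie near each other in a family of similar genes, and how reads that fit several members were counted is not given in the sources used here.

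The sequences upstream of 3 members are shown because these genes were called in a comparison below and their windows began outside the gene. Serpinb9, also called, is not shown because its window lies within the gene as the count files list it. The stretches shown are Prf1 on chr10:61297586-61297832, Nkg7 on chr7:43436888-43437072 and Lamp1 on chr8:13158911-13159160, all on the + strand of GRCm38.p6 and taken from RefSeq. Each stretch ends just before the gene start in the mm10 annotation of the count files, where Prf1 (ENSMUSG00000037202) spans chr10:61297833-61304680, Nkg7 (ENSMUSG00000004612) chr7:43437073-43438249 and Lamp1 (ENSMUSG00000031447) chr8:13159161-13175338, so it lies outside the annotated gene. In the stretches, capitals mark a match to one of 4 motifs searched on both strands: TTCNNNGAA (STAT), TCACACC (T-box), TGTGGTT (RUNX) and CACGTG (E-box).
Prf1: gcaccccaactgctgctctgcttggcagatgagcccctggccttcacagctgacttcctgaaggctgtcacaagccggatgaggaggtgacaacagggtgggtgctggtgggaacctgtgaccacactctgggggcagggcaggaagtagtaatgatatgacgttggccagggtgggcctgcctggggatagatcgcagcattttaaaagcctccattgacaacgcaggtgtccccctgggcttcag
Nkg7: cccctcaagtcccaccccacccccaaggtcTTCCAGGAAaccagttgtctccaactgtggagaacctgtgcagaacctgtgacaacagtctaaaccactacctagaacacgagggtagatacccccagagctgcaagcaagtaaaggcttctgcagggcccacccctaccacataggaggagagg
Lamp1: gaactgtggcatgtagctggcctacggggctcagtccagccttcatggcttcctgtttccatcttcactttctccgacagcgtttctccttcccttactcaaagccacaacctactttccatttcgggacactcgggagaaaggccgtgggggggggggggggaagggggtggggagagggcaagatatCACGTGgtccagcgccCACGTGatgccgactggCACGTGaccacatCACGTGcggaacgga

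The Lamp1 stretch held 4 E-box matches, starting 61, 45, 28 and 15 bases before the RefSeq start, and 7 of the 32851 windows of 250 bases searched held 4 or more. Nkg7 held a STAT match starting 220 bases before its start and a T-box match starting 13 bases before it, the latter outside the stretch printed. No match was found for Prf1. Windows were given for 9 members, as 11 windows, and 5 of the 11 held none of the 4 motifs. Among all windows, 7.02% held the STAT motif, 3.33% the T-box motif, 4.4% the RUNX motif and 6.02% the E-box motif. These matches are letters in a window and were not tested for binding.

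In the sorted trNK, Nkg7, Prf1, Srgn and Serpinb9 stood above the genes of the release machinery in every library. Nkg7, a granule membrane protein of cytotoxic lymphocytes, ranged over the 12 sorted libraries from 3000 to 7480 RPKM, with a median of 5380. Prf1 (perforin, the pore-forming protein) ranged from 134 to 984 RPKM, Srgn (serglycin, the proteoglycan core of the granule matrix) from 297 to 570 RPKM, and Serpinb9 (an inhibitor of granzyme B) from 111 to 515 RPKM. Serpinb6b, another clade B serpin, ranged from 46.9 to 163 RPKM and overlapped Stxbp2. The release genes were lower: Stxbp2 (Munc18-2, the partner of syntaxin-11) at 32.2 to 56.5 RPKM, Rab27a (a small GTPase needed for granule docking) at 9.3 to 27.7, Unc13d (Munc13-4, which primes docked granules) at 11.5 to 25.4, and Stx11 (syntaxin-11, a fusion SNARE) at 5.99 to 13.5. Lamp1, a lysosomal membrane glycoprotein that reaches the cell surface on degranulation, ranged from 4.24 to 98.5 RPKM. All 10 members were therefore measured, but Stx11 was below the limit for testing (above 10 RPKM in both libraries of a group) among the subsets.

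**Figure D1:**
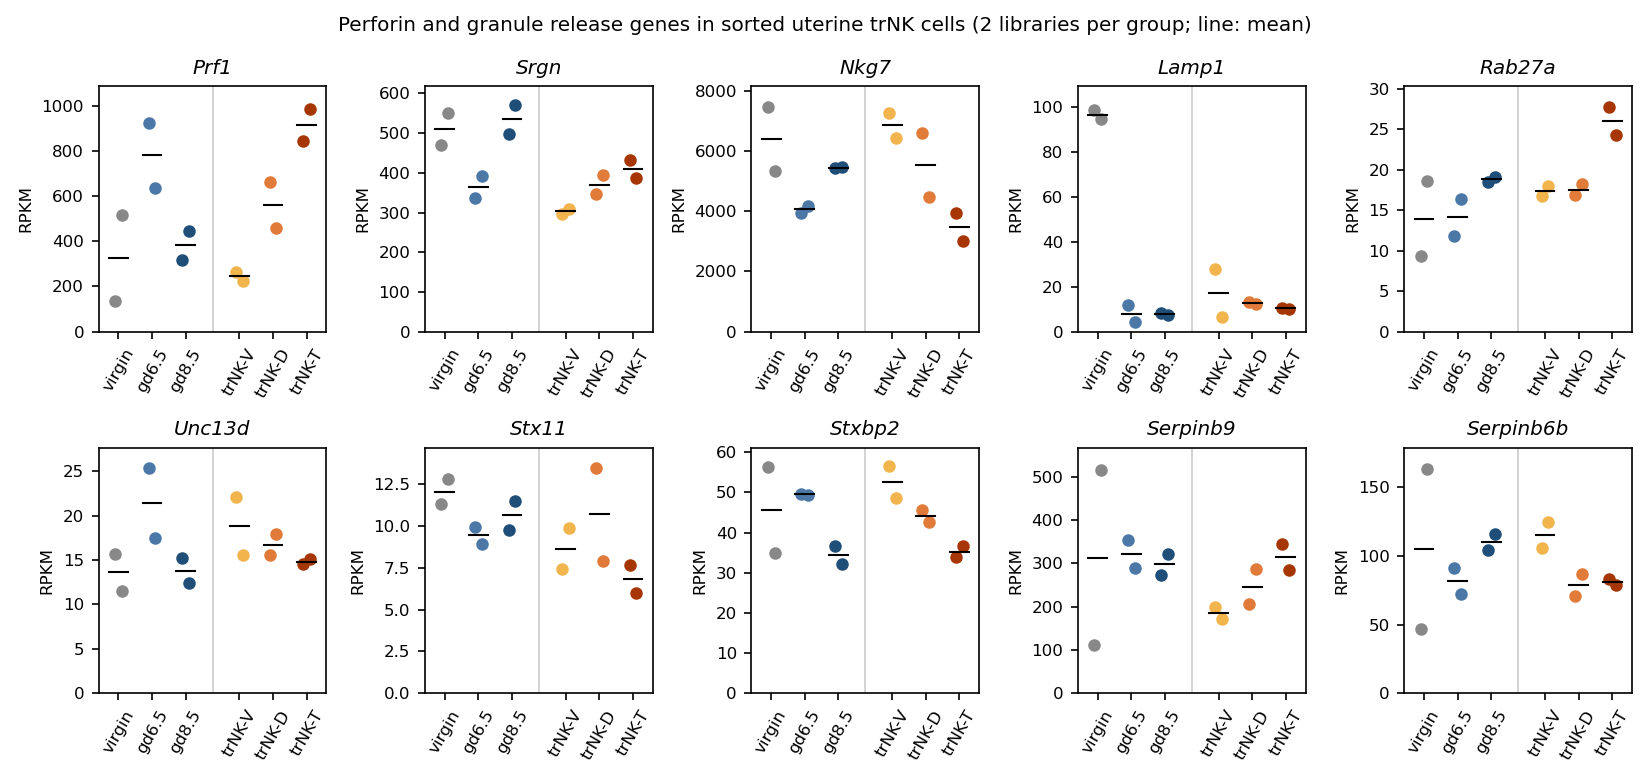
RPKM (y axis, from 0) of the 10 members in sorted trNK (x axis) by gestational stage, left of the grey line, and by gd8.5 subset, right of it; points are libraries and lines are means of 2. Lamp1 is high in the 2 virgin libraries (98.5 and 94.8 RPKM), and Prf1 is highest in trNK-T among the subsets.

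Across gestation, Lamp1 was the member called, at fold changes above 2 with an adjusted p below 0.05 (edgeR quasi-likelihood test, Benjamini-Hochberg over all tested genes). Its level was 98.5 and 94.8 RPKM in virgin trNK, 11.8 and 4.24 RPKM at gd6.5, and 8.33 and 7.47 RPKM at gd8.5. Both virgin libraries were far above all 4 libraries of pregnant mice, and the gd6.5 and gd8.5 libraries overlapped. The log2 fold change was -3.67 ± 0.48 (SE, adjusted p = 0.0279) at gd6.5 and -3.68 ± 0.48 (adjusted p = 0.0488) at gd8.5, both 12.8-fold lower than in virgin trNK; the virgin libraries are shared by these comparisons. This was 1 of 10 members tested at each day, where 6.18% of 4499 genes were called at gd6.5 and 0.422% at gd8.5. In the 28 libraries of the other experiments Lamp1 lay between 5.05 and 33.0 RPKM. The call at gd6.5 was lost without either gd6.5 library (-4.60, adjusted p = 0.0581, without replicate 1; -3.12, adjusted p = 0.105, without replicate 2), and that at gd8.5 without either gd8.5 library (-3.75, adjusted p = 0.474, and -3.61, adjusted p = 0.383), with no change of direction. Both calls were also lost with edgeR's own expression filter (filterByExpr; adjusted p = 0.0785 at gd6.5, 0.124 at gd8.5) and with a replicate block (adjusted p = 0.0625 and 0.0897), and the gd6.5 call when only its groups were fitted (adjusted p = 0.0813).

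Prf1 varied widely between the virgin libraries themselves, which held 134 and 515 RPKM. It reached 926 and 638 RPKM at gd6.5, above both virgin libraries, and 317 and 447 RPKM at gd8.5, between them. The log2 difference from virgin trNK was 1.19 ± 0.59 (SE, adjusted p = 0.212) at gd6.5 and 0.18 ± 0.58 (adjusted p = 0.904) at gd8.5, and neither passed the test. Serpinb9 had the same spread in virgin trNK, at 111 and 515 RPKM, with 354 and 290 RPKM on gd6.5 and then 274 and 322 RPKM by gd8.5, so that the pregnant libraries lay inside the virgin range. In virgin trNK Serpinb6b stood at 46.9 and 163 RPKM, and its 4 libraries of pregnant mice, at 72.5 to 116 RPKM, also lay inside that range.

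These 3 genes were low together in the first virgin library. That library also differed from the second in markers of other cells, with 111 against 500 RPKM of 6 neutrophil and monocyte markers (of which only 1 was above 1 RPKM in each) and 12.8 against 224 RPKM of 5 erythrocyte markers; the second gd8.5 library held 844 RPKM of the latter. Markers of dividing cells were also lower in the first, at 43.9 against 100 RPKM, and those of type 1 innate lymphoid cells higher, at 140 against 21.2 RPKM. The 4 trNK markers were alike in both, at 1240 and 1220 RPKM, and lower at gd6.5 (710 and 741) and gd8.5 (922 and 933). The part of these markers in the members' levels was not tested. The count file of the first virgin library also listed 55573 genes, against 54446 in every other library. Among the genes shared by all libraries, 1333 differed in listed length between libraries, and no member did. The part of this difference between files in the levels was not tested either. Without the second virgin library, 3 members were called at gd6.5 (Lamp1, Prf1 and Serpinb9) and 4 at gd8.5 (with Serpinb6b). In that setting 783 and 480 of all 4499 genes were called, against 278 and 19 with both libraries. Prf1 was then at a log2 difference of 2.46 at gd6.5 (adjusted p = 0.00333) and 1.45 at gd8.5 (adjusted p = 0.0205). Without the first virgin library the Prf1 difference at gd8.5 was -0.50 (adjusted p = 0.409).

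None of the remaining members was called across gestation. In virgin trNK Nkg7 stood at 7480 and 5330 RPKM, with 3950 and 4180 RPKM at gd6.5 and values of 5430 and 5460 RPKM by gd8.5, and Srgn was at 470 and 551, 337 and 393, and 499 and 570 RPKM. Both were lowest at gd6.5 without overlap with the other groups, and neither passed the test there (log2 differences from virgin -0.74 ± 0.19, adjusted p = 0.0591, and -0.57 ± 0.18, adjusted p = 0.0864). Unc13d was at 25.4 and 17.5 RPKM at gd6.5 against 15.7 and 11.5 in virgin trNK (log2 difference 0.57 ± 0.27, adjusted p = 0.192), and for Rab27a, Stx11 and Stxbp2 adjusted p was 0.222 or more at gd6.5 and 0.416 or more at gd8.5. Between gd8.5 and gd6.5 no member was called, and no gene of the 4499 (0%), with 1073 genes at an unadjusted p below 0.05 and 221 genes called by DESeq2. The largest difference among the members was that of Prf1, lower in both gd8.5 libraries than in both gd6.5 libraries (-1.01 ± 0.59, adjusted p = 0.343). Without a gene filter Prf1 was called there. The median log2 difference of the 10 members was -0.26 at gd6.5 and -0.09 at gd8.5 against virgin trNK, where the medians of all genes were -0.02 and 0.00.

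Among the gd8.5 subsets, Prf1 was the member called, and it was highest in trNK-T. It measured 266 and 226 RPKM in trNK-V (246 ± 27.9, SD, n = 2), 665 and 461 RPKM in trNK-D (563 ± 144) and 844 and 984 RPKM in trNK-T (914 ± 99.1). The 3 subsets, each of which enters 2 comparisons, did not overlap. Prf1 was 3.72-fold higher in trNK-T than in trNK-V (log2 1.9 ± 0.22, SE, adjusted p = 0.00352), where 21.2% of 4683 genes were called, so that 1 call among 9 tested members is near that share. The call held without each library in turn (1.79 to 2.02, adjusted p 0.00989 to 0.0326). The difference of trNK-D from trNK-V was 1.20 ± 0.21 (adjusted p = 0.0911) and that of trNK-T from trNK-D 0.69 ± 0.21 (adjusted p = 0.125); in these comparisons 0 of 9 members were called, with 0.32% and 1.75% of genes called. DESeq2 called Prf1 for trNK-D against trNK-V (1.19, adjusted p = 1.7e-05).

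Nkg7 ran opposite to Prf1 across the subsets, at 7270 and 6450 RPKM in trNK-V, 6610 and 4480 in trNK-D, and 3940 and 3000 in trNK-T. The trNK-T libraries lay below the other 4. Nkg7 passed the test in trNK-T against trNK-V, just under a fold change of 2 (log2 -0.98 ± 0.22, adjusted p = 0.0193). The other members past the test at smaller sizes were Serpinb9, at 345 and 285 RPKM in trNK-T against 200 and 172 in trNK-V (0.76 ± 0.22, adjusted p = 0.0371), Rab27a, at 27.7 and 24.3 against 16.8 and 18.0 RPKM (0.58 ± 0.19, adjusted p = 0.049), and Stxbp2, at 33.8 and 36.6 against 56.5 and 48.7 RPKM (-0.58 ± 0.15, adjusted p = 0.0291). Of the release genes, Rab27a was thus higher and Stxbp2 lower, while Unc13d did not pass and Stx11 was not tested. Without regard to size 5 of 9 members passed the test, where 34.6% of all genes did. Among single libraries left out, Nkg7 stayed past the test without the first trNK-T library alone (adjusted p = 0.0314, otherwise 0.0748 to 0.108), and Serpinb9, Rab27a and Stxbp2 were lost without any 1 of the 4 libraries (adjusted p 0.0586 to 0.201). With filterByExpr none of the 4 passed (adjusted p 0.053 to 0.18), and with no gene filter Stxbp2 did not (0.384). Rab27a also missed the threshold with voom, with a replicate block and with only these groups fitted (adjusted p = 0.0549, 0.064 and 0.0602).

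Srgn, at 432 and 386 RPKM in trNK-T and 297 and 309 in trNK-V, did not pass the test (0.44 ± 0.16, adjusted p = 0.0705), nor did Serpinb6b, at 83.3 and 78.8 against 106 and 125 RPKM (-0.51 ± 0.18, adjusted p = 0.0633). Unc13d and Lamp1 differed by -0.34 ± 0.23 and -0.70 ± 0.61 (adjusted p = 0.272 and 0.391). The median log2 difference of the 9 members was -0.34, against -0.01 for all genes. The summed level of 8 markers of conventional NK cells (cNK) moved with the subsets, from 1770 and 2860 RPKM in trNK-V to 375 and 437 RPKM in trNK-T, and that of 7 macrophage markers was 31.6 and 368 RPKM in trNK-V, 246 and 355 in trNK-D and 5.84 and 7.25 in trNK-T. The 6 markers of type 1 innate lymphoid cells summed to 107 and 182 RPKM in trNK-V and 1.41 and 1.56 RPKM in trNK-T. The 4 trNK markers were at 1380 and 1390 against 799 and 644 RPKM, and 8 T cell markers at 1810 and 1870 against 1140 and 1060 RPKM. Neutrophil and monocyte markers ran the other way, at 128 and 98.8 against 448 and 380 RPKM, with 1 of 6 above 1 RPKM in each library. The part of any of these lists in the members' differences was not tested. The same holds for Igkc and the plasma cell markers of the second trNK-D library in the trNK-D comparisons. Without that library the Prf1 difference of trNK-D from trNK-V was 1.43 (adjusted p = 0.107).

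In the 3-day culture, IL-21 raised Prf1 and the STAT3 inhibitor lowered it part of the way. Prf1 measured 46.0 and 57.9 RPKM without IL-21 (51.9 ± 8.42, SD, n = 2), 523 and 1040 RPKM with IL-21 (781 ± 365) and 217 and 140 RPKM with IL-21 and iSTAT3 (179 ± 54.8). The 3 groups, each of which also enters 2 comparisons, did not overlap, and both inhibitor libraries lay between the other pairs. Prf1 was 16.9-fold higher with IL-21 than without (log2 4.08 ± 0.44, SE, adjusted p = 0.0138), 1 of 9 members called where 0.289% of 4158 genes were called. It was 4.03-fold lower with iSTAT3 than with IL-21 alone (-2.01 ± 0.40, adjusted p = 0.0453; 2.96% of genes called) and 4.19-fold higher with both agents than with neither (2.07 ± 0.40, adjusted p = 0.0307; 4.74% called).

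These calls rested on few libraries. The IL-21 call was lost without the first untreated library (adjusted p = 0.102) or the second (adjusted p = 0.0651), with the log2 difference between 3.57 and 4.48 over all libraries left out. The iSTAT3 call against IL-21 was lost without the second IL-21 library (-1.5, adjusted p = 0.131) and without the first or second inhibitor library (-2.33, adjusted p = 0.142, and -1.74, adjusted p = 0.19), and the call against no IL-21 was lost without any 1 library (1.78 to 2.37, adjusted p 0.07 to 0.177). All 3 calls were also lost with edgeR's own expression filter (filterByExpr) in place of the RPKM limit (adjusted p = 0.0896, 0.153 and 0.096) and with a replicate block (adjusted p = 0.109, 0.146 and 0.0955), and the iSTAT3 call against IL-21 when only these groups were fitted (adjusted p = 0.0694). Prf1 kept its direction in each of these.

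No other member was called in the 3-day culture. Serpinb9 followed the order of Prf1 in its levels, at 86.2 and 36.8 RPKM without IL-21, 135 and 141 with it, and 69.5 and 69.7 with iSTAT3. Both IL-21 libraries were above the other 4, and the log2 differences were 1.35 ± 0.41 (adjusted p = 0.278) for IL-21 and -0.88 ± 0.41 (adjusted p = 0.286) for iSTAT3 against IL-21. Rab27a was at 8.53 and 12, 16.9 and 19.8, and 5.74 and 9.10 RPKM, with both IL-21 libraries again highest and no call (1.02 ± 0.42, adjusted p = 0.514, and -1.20 ± 0.43, adjusted p = 0.178). Nkg7 was at 5380 and 4060 RPKM without IL-21, 5870 and 4290 with it, and 2160 and 2540 with iSTAT3, so that the inhibitor libraries were lowest; against IL-21 this gave -1.02 ± 0.33 (adjusted p = 0.152), which DESeq2 called (-1.03, adjusted p = 0.0413).

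Srgn was highest with iSTAT3, at 615 and 968 RPKM against 481 and 413 without IL-21 (1.11 ± 0.35, adjusted p = 0.117; called by DESeq2, 1.13, adjusted p = 0.0291), with 692 and 508 RPKM under IL-21 alone. Serpinb6b stayed low throughout, at 18.0 and 8.73, 15.3 and 15.6, and 6.87 and 6.55 RPKM. For Lamp1, Stx11 and Stxbp2 the libraries of a group differed by up to several-fold (Lamp1 with iSTAT3 at 5.34 and 21.1 RPKM), and none of their 9 comparisons gave an adjusted p below 0.306. Unc13d, at 4.37 to 23.1 RPKM, was not tested. The median log2 difference of the 9 tested members was 0.40 with IL-21 (all genes -0.02) and -0.88 with iSTAT3 against IL-21 (all genes -0.03). The summed trNK markers moved too, and were 228 and 234 RPKM with iSTAT3. Markers of type 1 innate lymphoid cells were at 193 and 209 RPKM without IL-21, 50 and 108 with it and 34.2 and 78.3 with iSTAT3. The 10 genes with most counts held 8.05 and 6.31% of counts without IL-21, 15.2 and 12.6% with it and 11 and 12.5% with iSTAT3. The part of this share or of either list in the members' differences was not tested.

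In the time course, IL-21 raised Prf1 early. At 0 h Prf1 was at 25.9 and 21.7 RPKM in IL-15 alone and 16.5 and 40.0 RPKM in the IL-21 group, which overlapped. At 6 h it was at 20.7 and 12.7 RPKM without IL-21 and 75.8 and 98.8 with it, and at 24 h at 11.9 and 12.8 RPKM without and 62.9 and 51.9 with it. All 4 IL-21 libraries of these times were above all untreated libraries. The difference was 5.13-fold at 6 h (log2 2.36 ± 0.44, SE, adjusted p = 0.0204) and 4.33-fold at 24 h (2.11 ± 0.44, adjusted p = 0.0349), each time 1 of 6 members tested, where 1.97% and 1.66% of 3503 genes were called. Both calls were lost when any 1 of the 4 libraries compared was left out, with the difference at 2.09 to 2.69 (adjusted p 0.0947 to 0.234) at 6 h and 2.00 to 2.22 (adjusted p 0.197 to 0.278) at 24 h. Both were also lost with filterByExpr (adjusted p = 0.0669 and 0.127). With a replicate block the 6 h call was kept (adjusted p = 0.032) and the 24 h call was not (0.0531). Marker lists moved with IL-21 at these times. The 4 trNK markers summed to 1320 and 1250 RPKM without it and 577 and 617 with it at 6 h, and to 1500 and 1400 against 898 and 866 RPKM at 24 h. Those of type 1 innate lymphoid cells were at 163 and 122 against 63.4 and 77.2 RPKM at 6 h and 191 and 180 against 68.3 and 59.5 at 24 h. The cNK markers were at 4070 and 4020 against 2500 and 2890 RPKM at 24 h. Their part in the Prf1 differences was not tested.

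At 72 h Prf1 was at 16.2 and 8.15 RPKM without IL-21 and 32.4 and 12.8 RPKM with it. These libraries overlapped and the difference did not pass the test (0.77 ± 0.42, adjusted p = 0.29). The test of the IL-21 difference at 72 h against that at 6 h gave -1.58 ± 0.60 (adjusted p = 0.17) for Prf1, and 0 of 6 members were called there, where 4.17% of genes were. Set against the 3-day culture, where IL-21 had been compared over the same span with another kit, the IL-21 difference of Prf1 at 72 h was lower by 3.37 ± 0.67 on the log2 scale (adjusted p = 0.141), and no gene of 4229 was called (0%; 306 at an unadjusted p below 0.05, and 115 called by DESeq2, Prf1 among them at -3.47, adjusted p = 6.41e-05). It passed the test without the first or the second untreated 72 h library (adjusted p = 0.047 and 0.0489).

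**Figure D2:**
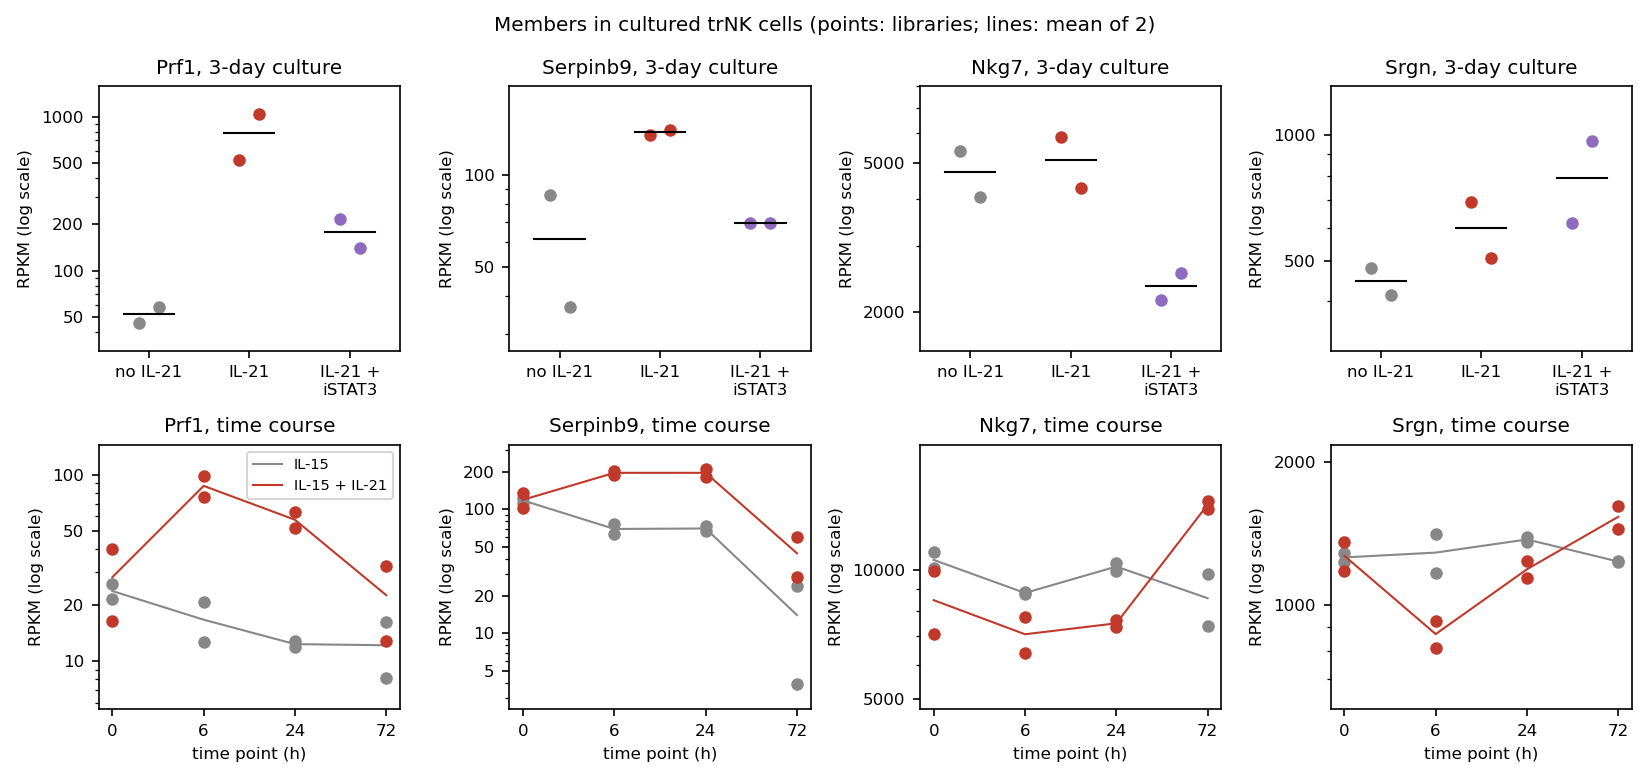
RPKM (y axis, log scale) of Prf1, Serpinb9, Nkg7 and Srgn in the 3-day culture (upper panels, x axis: condition) and the time course (lower panels, x axis: hours; colours mark IL-15 alone and with IL-21); points are libraries and lines are means of 2. Prf1 with IL-21 lies above the untreated libraries at 6 and 24 h and overlaps them at 72 h.

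Serpinb9 fell between 24 and 72 h of culture in both arms. Without IL-21 it was at 112 and 124 RPKM at 0 h, 63.5 and 75.5 at 6 h, 66.6 and 73.6 at 24 h, and 24.2 and 3.89 at 72 h. With IL-21 it was at 103 and 136, 190 and 204, 210 and 184, and 60 and 28.5 RPKM. All 72 h libraries lay below the 24 h libraries of the same arm. The log2 change from 24 to 72 h was -2.06 ± 0.55 (adjusted p = 0.0266) without IL-21 and -1.84 ± 0.54 (adjusted p = 0.0367) with it, and 14.8% of genes were called in each. From 6 to 72 h the IL-21 libraries were above the untreated ones without overlap, 2.76-fold at 6 h, 2.62-fold at 24 h and 3.05-fold at 72 h. The reported fit called none of these (adjusted p = 0.267, 0.247 and 0.0858), but other fits did. With no gene filter all 3 were called (adjusted p = 0.00608, 0.0132 and 0.000181). When only the groups compared were fitted, 6 and 24 h were called (adjusted p = 0.00085 and 2.85e-06) and 72 h was not (0.823). Limma voom called 6 and 72 h (adjusted p = 0.0358 and 0.0289) and DESeq2 72 h (0.0202). At 72 h the difference was also called without the first untreated library (log2 3.28, adjusted p = 2.34e-05).

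The Serpinb9 calls were also sensitive to single libraries. Without IL-21 the call was lost without the first 24 h library (-2.13, adjusted p = 0.0801) or the second (-1.98, adjusted p = 0.112). With IL-21 it was lost without the first or second 24 h library (adjusted p = 0.14 and 0.113) or the second 72 h library (adjusted p = 0.186). Both calls were lost when only the groups compared were fitted (adjusted p = 0.275 without IL-21 and 0.0561 with it), and the latter with filterByExpr as well (adjusted p = 0.0945). Over single libraries left out, the change ran from -3.71 to -1.30 without IL-21 and from -2.20 to -1.55 with it.

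Nkg7 moved the other way in the IL-21 arm. It was at 9920 and 7070 RPKM at 0 h, 7740 and 6400 at 6 h, 7360 and 7640 at 24 h, and 13900 and 14500 RPKM at 72 h with IL-21, both of the last above all other libraries of the time course. From 24 to 72 h it rose 2.49-fold (1.31 ± 0.24, adjusted p = 0.00424), which made 2 of 6 members called, 1 in each direction, where 8.76% of genes were called higher and 6.02% lower; the call was lost without the first 24 h library (1.26, adjusted p = 0.0538) and when only these groups were fitted (1.32, adjusted p = 0.11). Without IL-21, Nkg7 was at 10400 and 9960 RPKM at 24 h and 9780 and 7390 at 72 h (0.09 ± 0.24, adjusted p = 0.83). The fold changes use trimmed-mean scaling and RPKM the library total, so that differences can differ in size and small ones in sign. With IL-21 the mean RPKM of Nkg7 went from 7500 at 24 h to 14200 at 72 h. This rise passed the limit of 2-fold on the trimmed-mean scale and not in RPKM. The IL-21 difference of Nkg7 at 72 h against 6 h was 1.04 ± 0.34 (adjusted p = 0.113). Without IL-21, Srgn was at 1390 and 1360 RPKM at 24 h and 1230 and 1240 at 72 h. It was lower in RPKM but not on the trimmed-mean scale (0.2 ± 0.23, adjusted p = 0.583). With IL-21 Srgn passed the test at a smaller size than Nkg7, from 1140 and 1240 RPKM at 24 h to 1450 and 1620 at 72 h (0.77 ± 0.23, adjusted p = 0.0369). It stayed past the test without the first 72 h library alone (adjusted p = 0.00668, otherwise 0.122 to 0.214). Srgn also did not pass it with only these groups fitted (adjusted p = 0.221), with no gene filter (0.137) or with filterByExpr (0.275). Prf1 was lower at 72 h than at 24 h with IL-21 in all libraries without passing the test (-1.05 ± 0.42, adjusted p = 0.111), and passed it without the first 72 h library (-1.57, adjusted p = 0.0414).

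Serpinb6b was at 63.3 and 39.2 RPKM at 24 h and 16.7 and 0.403 RPKM at 72 h without IL-21, and at 80.2 and 85.4 then 49.6 and 36.2 RPKM with it. The untreated 72 h libraries differed widely from each other, and neither IL-21 against none at 72 h (2.35 ± 1.0, adjusted p = 0.172) nor 72 h against 24 h without IL-21 (-2.35 ± 1.0, adjusted p = 0.131) was called for Serpinb6b. The size of both differences depended on 1 library, while the direction was kept. Without the first untreated 72 h library they were 6.54 and -6.53, and without the second 1.38 and -1.38. Lamp1 lay at 5.05 to 33.0 RPKM over the 16 libraries with adjusted p of 0.78 or more throughout. Rab27a (1.05 to 5.58 RPKM), Unc13d (1.5 to 9.94), Stx11 (0 to 5.31) and Stxbp2 (0.885 to 6.05) were below the limit for testing at every time. Stx11 had 0 and 18 counts in the untreated 72 h libraries and 478 and 300 counts with IL-21, and with the gene filter relaxed it was called at 72 h.

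The 72 h libraries also differed in dividing-cell genes. The summed level of 5 such markers was 12.2 and 0.556 RPKM without IL-21 and 80.2 and 43.1 with it at 72 h, against 431 to 469 RPKM at 24 h, and the summed cNK markers lay at 2500 to 4070 RPKM at 24 h and at 5700 to 7600 RPKM at 72 h. Markers of type 1 innate lymphoid cells were higher at 72 h too, at 531 and 208 RPKM without IL-21 and 685 and 279 with it, against 191 and 180, and 68.3 and 59.5, at 24 h. The part of these differences, and of the numbers of genes detected at 72 h, in the members' levels was not tested. No member was called between 0 and 6 h or between 6 and 24 h without IL-21 (0% and 0.0856% of genes called by edgeR, the former with 106 genes at an unadjusted p below 0.05 and 8 called by DESeq2), at 0 h with IL-21 (0%; 110 genes at an unadjusted p below 0.05 and 0 by DESeq2) or at 72 h with IL-21 (8.08%). The median log2 difference with IL-21 was -0.07 at 6 h, 0.21 at 24 h and 0.73 at 72 h over the 6 tested members, and -0.02, 0.01 and 0.05 over all genes.

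**Figure D3:**
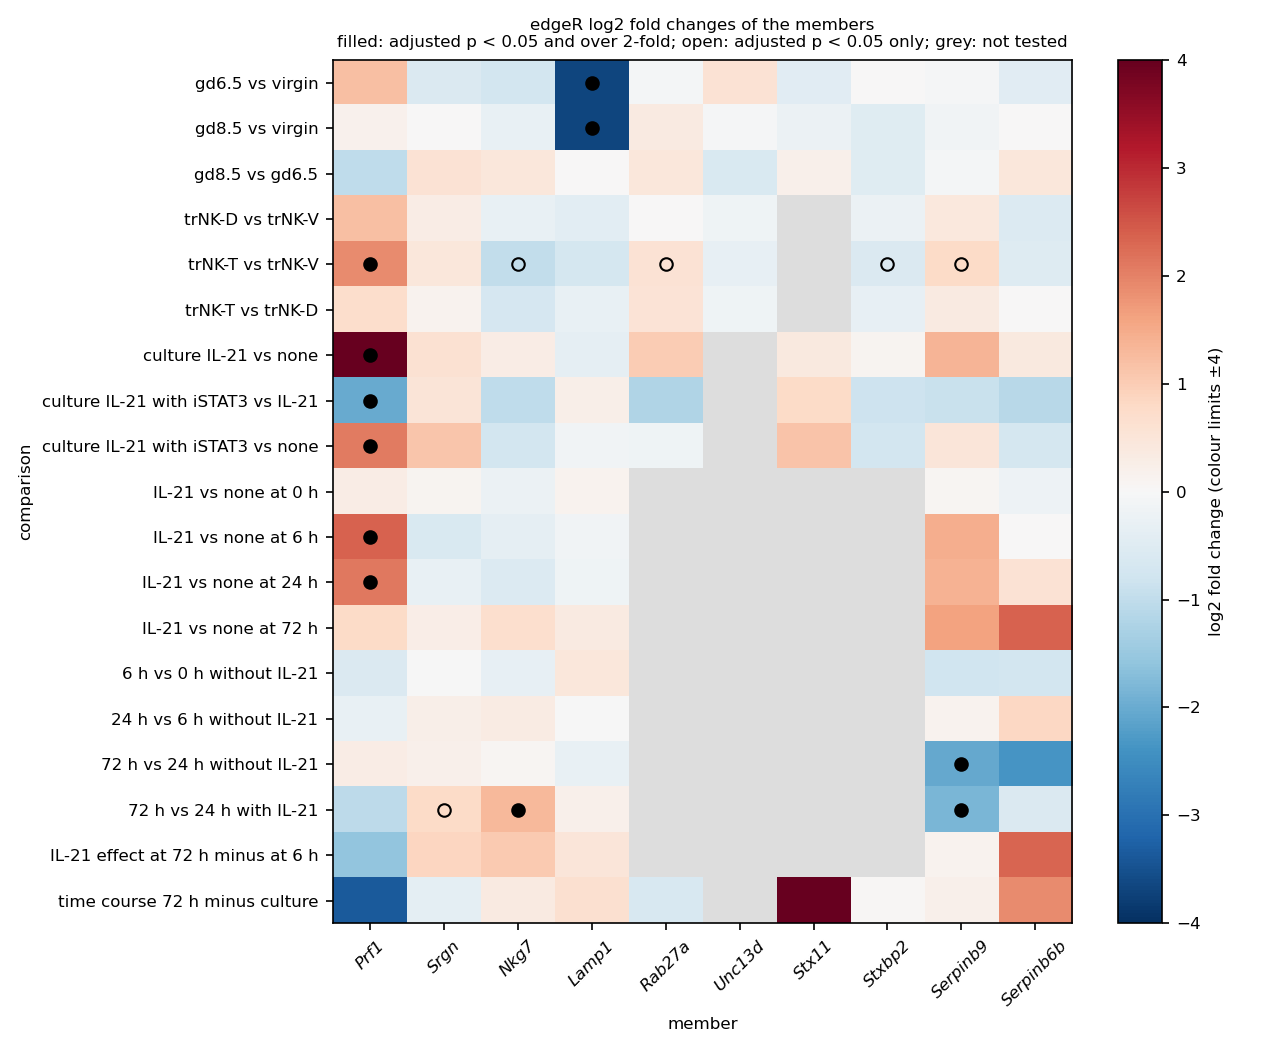
Log2 fold change (colour) of each member (x axis) in the 19 comparisons (y axis); a filled dot marks a call at a fold change above 2 and an adjusted p below 0.05, an open dot an adjusted p below 0.05 alone, and grey a gene not tested. Prf1 carries most calls, Lamp1 the 2 of gestation, and Rab27a, Unc13d, Stx11 and Stxbp2 none.

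The wider pathway was read from 58 further genes of granule biogenesis, transport, docking and protection, of which 57 were in the files and 31 were tested (23 in the time course). In trNK-T against trNK-V, 4 genes were higher and 4 lower of 31, near the 21.2% called among all genes. Among them Calr (calreticulin, a chaperone that binds perforin) was at 332 and 616 RPKM in trNK-T and 133 and 143 in trNK-V (1.78 ± 0.36, adjusted p = 0.0135), whereas Rab37, a GTPase of secretory vesicles, was at 5.2 and 5.03 against 45.4 and 31.0 RPKM (-2.90 ± 0.22, adjusted p = 0.0013). Serpina3g (a serpin of the A clade) and Dock2 (an activator of Rac) were lower by 2.47 ± 0.72 and 1.60 ± 0.26 on the log2 scale (adjusted p = 0.0391 and 0.00679). Rab37 was the 1 of 31 called in trNK-T against trNK-D (-2.11 ± 0.22, adjusted p = 0.011), where 1.75% of all genes were called.

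In the other comparisons the list had 0 to 3 calls, given below beside the share called among all genes. These counts are too small to be read as a result about the list. At gd6.5 against virgin trNK, where 6.18% of all genes were called, 2 of 31 were lower, Arl8a (a GTPase of lysosome transport, -2.54 ± 0.53, adjusted p = 0.0393) and Serpina3g (-2.03 ± 0.33, adjusted p = 0.0304). Ctsc (cathepsin C, which activates granzyme precursors) was at 73.8 and 107 RPKM without IL-21, 71.7 and 92.9 with IL-21 and 359 and 198 with iSTAT3, and was called higher with iSTAT3 against IL-21 (1.86 ± 0.38, adjusted p = 0.0471) and against none (1.91 ± 0.38, adjusted p = 0.0341), the latter beside Serpinb6a. These were 1 and 2 of 31, where 2.96% and 4.74% of all genes were called. At 72 h Ctsc and Serpina3g, 2 of 23, were higher with IL-21 than without (1.55 and 1.42, adjusted p = 0.0211 and 0.0189), where 8.08% of all genes were called. From 24 to 72 h, where 14.8% of all genes were called in each arm, 1 of 23 rose and 2 fell without IL-21 (Lamp2 1.24, Snap23 -1.96 and Ctsc -1.12), and 2 rose with it (Cst7, an inhibitor of cathepsins, 1.32, and Vamp8, a vesicle SNARE, 1.29); the IL-21 difference at 72 h exceeded that at 6 h for Serpina3g and Cst7 (2.15 and 1.17), 2 of 23 where 4.17% of all genes were called. No gene of the list was called in the other comparisons, among them IL-21 against none in the 3-day culture.

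The genes whose levels were most like those of Prf1 were sought among 2662 genes above the RPKM limit in all 4 experiments, by Pearson's r of log2(RPKM + 1) centred on each experiment's mean over the 34 libraries. They were Gzmb (r = 0.854), Dnajb11 (0.825), Hsd17b10 (0.823), Calr (0.823) and Spp1 (0.815). Gzmb encodes granzyme B, Dnajb11 a chaperone of the endoplasmic reticulum, and Spp1 osteopontin. Of the other members only 5 were among the 2662 genes, and Rab27a, Unc13d, Stx11 and Stxbp2, which were below the limit in at least 1 experiment, have no value. Among the 5, Serpinb9 was the closest to Prf1, at r = 0.677 (rank 49), with 0.818, 0.766, 0.769 and 0.758 within the gestation, subset, culture and time-course libraries. Serpinb6b was at 0.32, Lamp1 at -0.112, Srgn at -0.176 and Nkg7 at -0.389. For these the sign differed between experiments. Serpinb6b was at 0.531 in gestation and -0.887 in the subsets, and Lamp1 at -0.525 in gestation and 0.453 in the time course. Srgn was at 0.824 in the subsets and -0.757 in the time course. Nkg7 was negative in gestation (-0.956), the subsets (-0.772) and the time course (-0.505), and at 0.0507 in the culture. The libraries share groups, depth and batch of experiment, so these values describe the 34 libraries and carry no test.

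Single cells showed which cells held these transcripts. After cells with 200 genes or fewer, 2500 genes or more, or a mitochondrial share of 10% or more were left out, 8907 cells remained, with a median of 2576 UMIs, in 18 clusters made without the members. Virgin and gd8.5 cells were tagged and mixed and no map of cells to them was used, so the matrix is 1 sample, no test was made, and intervals (exact Poisson, 95%) cover counting error only. Levels are CPM (a gene's UMIs relative to all UMIs of the class), and the B-like cells, which should lack Prf1 and Nkg7, held 195 and 477 CPM of them. For the members that many leukocytes express, such as Srgn, Lamp1 and Stxbp2, the B-like level is no measure of background. By markers, 5 clusters (3738 cells) were called trNK-like and 1 (1013 cells) cNK-like, with thresholds set after the clusters were seen. Klra4, a cNK marker, was among the leading genes of the largest trNK-like cluster. The doublet caller Scrublet, run on the cells kept after these limits, marked 1 cell, and why it marked so few was not tested. No doublets were removed, so doublets may remain.

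Prf1 was at 1880 CPM (1820 to 1940) in the cNK-like cluster and 973 CPM (956 to 990) over the trNK-like clusters, a ratio of 0.518 (0.499 to 0.538). Among the trNK-like clusters it ranged more widely, from 397 to 1430 CPM: it was at 1430 CPM (1400 to 1460) in the cluster led by Gzmc and Gzmf, 661 (635 to 687) in that led by Cox6a2 and Xcl1, 656 in that led by Gm26917, 481 (450 to 513) in that led by heat shock genes and 397 in that led by Cxcl10. An unnamed cluster of 704 cells led by Mt2, Scin and Ctsg held 1440 CPM (1400 to 1480). Its Eomes was at 414 CPM and its Itga1 at 133 CPM, 2.03 times the B-like level, but Ncr1 and Klrb1c were near or below that level. It was left out of the trNK-like level and ratio above. At Leiden resolution 0.4 a cluster led by Mt2 was named trNK-like, and the ratio was 0.601 (0.579 to 0.623). With the upper limit on genes per cell removed, which brought back deeper cells, the trNK-like to cNK-like ratio was 0.988 (0.957 to 1.02). This interval spans equal levels, so the Prf1 difference between the 2 classes depended on that limit.

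Nkg7 ordered the clusters otherwise. It was at 3940 CPM (3860 to 4040) in the cNK-like cluster, 2360 (2310 to 2410) in the Cox6a2 cluster and 1420 (1380 to 1450) in the Gzmc cluster, and at 512 (490 to 535) in the Mt2 cluster, close to the B-like level in CPM. However, 80.7% of the Mt2 cluster cells held a UMI of Nkg7, against 25.3% of B-like cells. The median depth was 5689 UMIs per cell in the former and 1830 in the latter. The Gzmc cluster was thus above the Cox6a2 cluster in Prf1 and below it in Nkg7. Srgn was at 2120 and 1790 CPM in these clusters, 1060 in the cNK-like and 1010 in the B-like cluster, and reached 9670 CPM in a neutrophil- or monocyte-like cluster of 13 cells. Serpinb9 was at 1000 CPM (958 to 1050) in the cNK-like cluster, 687 (665 to 709) in the Gzmc, 660 (635 to 687) in the Mt2, 542 in the Cox6a2 and 243 in the heat shock cluster, against 121 in B-like cells. Serpinb6b was at 487 CPM (456 to 519) in the cNK-like, 269 in the Cox6a2, 237 in the Gzmc and 230 in the Mt2 cluster, against 73.1 in B-like cells. Both serpins were also high in an unnamed cluster of 26 cells led by Ccl22, Fscn1 and Ccr7. It held 929 CPM of Serpinb9 (733 to 1160) and 458 of Serpinb6b (324 to 629), and these intervals overlap those of the cNK-like cluster.

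Lamp1 was highest outside the NK-like clusters, in macrophage-like cells at 872 CPM (838 to 907), and in 2 unnamed clusters led by Ace and Ly6i (717) and by Ccl22 (639), against 189 CPM (182 to 197) in trNK-like, 134 (118 to 151) in cNK-like and 176 (145 to 212) in B-like cells. Among the trNK-like clusters Lamp1 was at 214 CPM (199 to 229) in the Cox6a2 and 169 (159 to 181) in the Gzmc cluster. The heat shock, Gm26917 and Cxcl10 clusters, at 201, 185 and 176 CPM, lay between these. The unnamed Mt2 cluster held 98.5 CPM (88.8 to 109). Stxbp2 was at 69.1 CPM in trNK-like and 81.0 in B-like cells, and Unc13d at 59.6 and 33.4. Stx11 was at 36.2 CPM (33.0 to 39.7) in trNK-like, 62.2 (51.4 to 74.4) in cNK-like and 11.1 (4.47 to 22.9) in B-like cells. In the bulk virgin libraries, where Lamp1 was highest, 7 macrophage markers summed to 19.6 and 6.93 RPKM (4 and 2 of 7 above 1 RPKM), and in the gd6.5 and gd8.5 libraries to 2.38 to 12.4 RPKM (0 to 3 of 7), and their part in the Lamp1 difference was not tested.

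**Figure D4:**
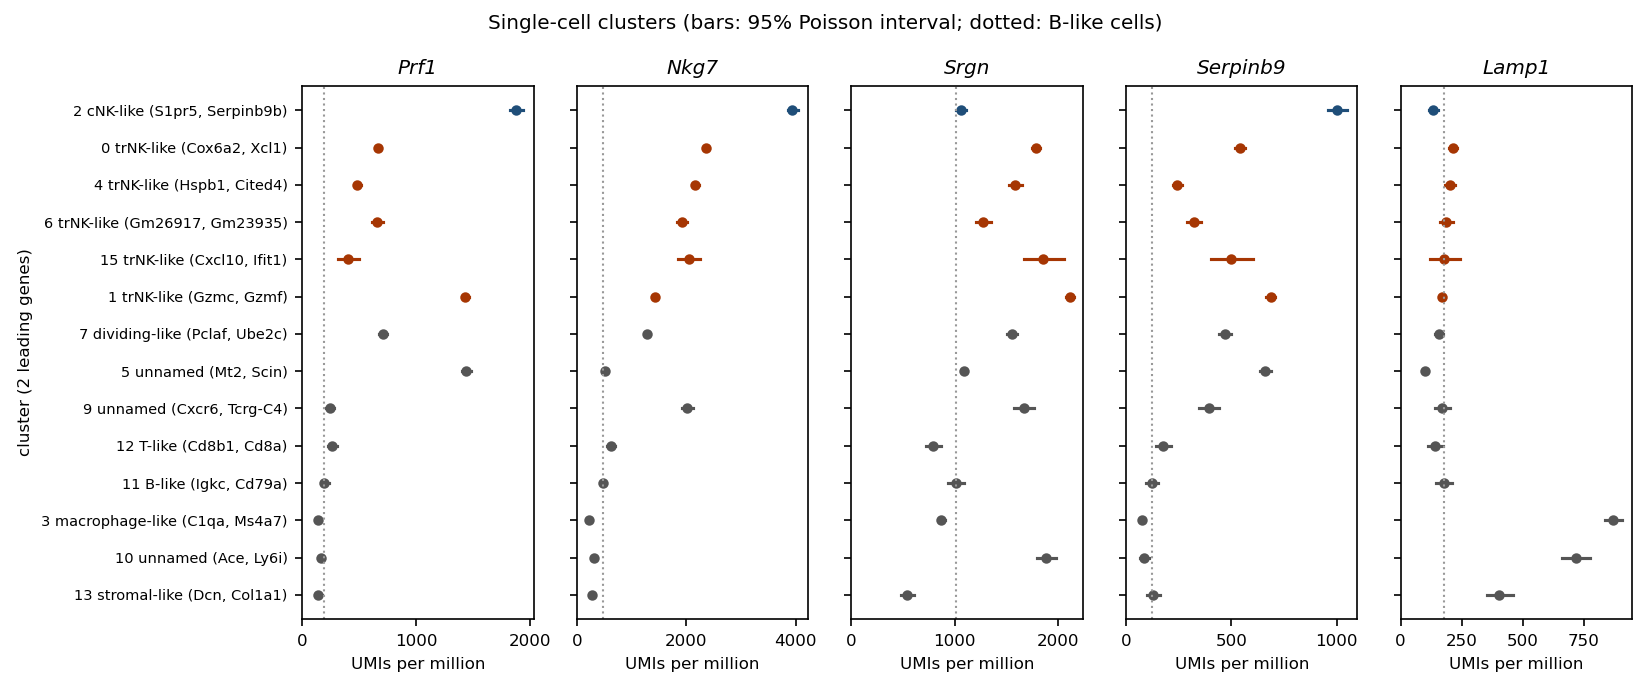
Level (CPM, x axis) of Prf1, Nkg7, Srgn, Serpinb9 and Lamp1 in 14 clusters of the single-cell matrix, with exact Poisson 95% intervals; the dotted line marks the B-like cluster. With the reported limits on genes per cell, Prf1 and Nkg7 are highest in the cNK-like cluster and Lamp1 in the macrophage-like cluster.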

How the data were processed

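Bulk libraries were deposited as read counts per gene in featureCounts layout. The authors aligned reads with HISAT2 2.1.0 to mm10 (submitters' processing notes, which also name Subread; the methods name RSEM). Single cells were deposited as a table of UMI counts per cell for each single-cell sample, from the BD Rhapsody pipeline. Both tables listed the same 15175 cells, with 6821 and 28416 genes and no gene in common, and they were joined here. No other values were used, and the accessibility libraries of the series were not analysed here.

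Each experiment was fitted on its own with edgeR 4.0.16 (R 4.3.3): trimmed-mean scaling, genes above 10 RPKM in both libraries of any group, as in the methods, 1 quasi-likelihood fit over all groups, and Benjamini-Hochberg adjustment. Genes were called where adjusted p was below 0.05 and the fold exceeded 2. The 2 cultures were joined in 1 fit to compare their IL-21 effects. SE is the log2 fold change over the root of F. RPKM used the gene lengths listed in each count file. DESeq2 1.42.0, limma 3.58.1 (voom), other filters, a replicate block and leaving out each library were alternatives. The reported edgeR fit was tested on simulated data with 200 changed genes, for 1 comparison of each experiment and for that between the 2 cultures. The alternatives were not tested in this way.

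The methods give the cell limits of 200 and 2500 as UMIs, and here they were read as genes per cell, with UMIs as an alternative. Cells were clustered with scanpy 1.11.5 (2000 variable genes, 20 components, Leiden resolution 0.8). Named genes were the 10 members, pathway genes called in a comparison (at most the 4 with the largest change, and also counted for the others) and the 5 genes most correlated with Prf1. The members and lists were chosen with earlier results of these data known. Library totals of 11862089 to 66468883 counts gave 220 or more counts per library for Lamp1 and 877 or more for Prf1. Sequences are from the RefSeq promoter table for GRCm38.p6.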

Additional observations from a re-analysis of the deposited data

How the results depend on the processing

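Over the other tools and filters, 319 single-gene values kept direction and side of the threshold or, for single-cell ratios, stayed within the reported interval. Another 24 values passed the threshold anew and 19 lost it, and 14 single-cell ratios moved beyond the interval. These ratios, of members other than Prf1, have no test. With 1 library left out 180 values kept direction and side, 16 passed anew, 27 lost it and 5 changed direction. The bulk values counted were those of Prf1 and of members that passed the test or differed by more than a set size in the reported fit. The 2 libraries per group limit every call, and the cause of each change was not tested.

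By number of members called (the reported number in brackets), filterByExpr in place of the RPKM filter, which tests more genes, gave 0 (1) for gd6.5 and gd8.5 against virgin, the 3 comparisons of the 3-day culture, and IL-21 at 6 and 24 h, 1 (0) at 72 h, Stx11, and 1 (2) for 72 h against 24 h with IL-21. No gene filter gave 2 (1) for gd6.5 against virgin, 1 (0) for gd8.5 against gd6.5 and for trNK-D against trNK-V, Prf1 being added in each, 2 (1) at 6 and 24 h with Serpinb9 added, 3 (0) at 72 h, 3 (1) for 72 h against 24 h without IL-21 and 2 (0) for the IL-21 effect at 72 h minus 6 h. Fitting only the groups compared gave 0 (1) for gd6.5 against virgin, iSTAT3 against IL-21 and 72 h against 24 h without IL-21, 0 (2) for the latter with IL-21, 1 (0) for gd8.5 against gd6.5 and 2 (1) at 6 and 24 h. DESeq2 gave 1 (0) for trNK-D against trNK-V, at 72 h, for 72 h minus 6 h and between the 2 cultures, and 2 (1) for iSTAT3 against IL-21 and against none and for 72 h against 24 h without IL-21. Limma voom gave 2 (1) at 6 h, 2 (0) at 72 h and 2 (1) for 72 h against 24 h without IL-21.

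Same-numbered replicates did not all deviate together (correlations from -0.282 to 0.108 in gestation, 0.0104 to 0.399 in subsets, where 2 of 3 pairs were over 0.1, -0.509 to 0.598 in culture and -0.392 to 0.477 in the time course), so the numbers, not all of whose pairs passed 0.1 in any experiment, were not taken to pair libraries. A replicate block gave 0 (1) for gd6.5 and gd8.5 against virgin, the 3 comparisons of the 3-day culture and IL-21 at 24 h.

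With 1 library left out, members called ran from 0 to 3 at gd6.5 and 0 to 4 at gd8.5 against virgin, 1 to 2 for trNK-T against trNK-V, 0 to 1 for IL-21 and for iSTAT3 against IL-21 in the 3-day culture, 0 to 2 for IL-21 at 72 h, for 72 h minus 6 h, for 72 h against 24 h without IL-21 and between the 2 cultures, and 0 to 4 for 72 h against 24 h with IL-21; the other comparisons gave 0 throughout. Over the same libraries left out, genes called among all genes ran from 0 to 783, 0 to 480, 418 to 862, 2 to 17 (IL-21), 7 to 39 (iSTAT3), 246 to 916, 63 to 759, 227 to 1138, 0 to 382 and 200 to 862, in that order. The Prf1 log2 difference changed sign within -0.50 to 1.45 for gd8.5 against virgin, -0.35 to 0.76 for IL-21 at 0 h, -0.56 to 0.03 for 24 h against 6 h and -0.14 to 0.63 for 72 h against 24 h without IL-21.

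Genes called among all genes ranged over the other settings from 0 to 919 (reported 278) for gd6.5 against virgin, 0 to 502 (19) for gd8.5 against virgin, 0 to 452 (0) for gd8.5 against gd6.5, 1 to 471 (15) for trNK-D against trNK-V, 968 to 2022 (991) for trNK-T against trNK-V, 11 to 587 (82) for trNK-T against trNK-D, 0 to 162 (12) for IL-21, 1 to 461 (123) for iSTAT3 against IL-21 and 21 to 653 (197) against none. In the time course they ranged from 10 to 244 (69) at 6 h, 1 to 367 (58) at 24 h, 0 to 1518 (283) at 72 h, 3 to 1829 (518) for 72 h against 24 h without IL-21, 68 to 683 (518) with it and 54 to 873 (146) for 72 h minus 6 h.

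The single-cell Prf1 ratio of trNK-like to cNK-like clusters (0.518) was 0.423 with the limits read as UMIs, 0.988 with no upper limit and 0.601 at Leiden resolution 0.4.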
